A study of Mus musculus with 19 samples.

Results

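The genes described are 10 members of a receptor system first known from natural killer (NK) cells. They are the killer cell lectin-like receptors Klrg1, Klrb1c, Klrc1, Klrc2, Klrd1, Klre1 and Klrk1, and the signalling adaptors Fcer1g, Tyrobp and Hcst. They and the gene lists below were chosen by name out of 53656 genes counted, with earlier results of these data known. Shares of all genes set beside them are therefore given for scale and are no independent test. All 10 members had a row in every count table. The RNA of these members was measured in 19 libraries of CD8 T cells from C57BL/6 mice that carry a transgenic T cell receptor. The SV40-I receptor is specific for large T antigen of the virus SV40, and the OT-I receptor for ovalbumin. Of the 7 groups, 5 were sorted straight from mice, with 3 libraries each. They were naive SV40-I cells (low for CD44), SV40-I cells of malignant liver lesions at days 8 to 9 that were low for PD1, LAG3 and CD39 (marker-low) or high for these proteins (marker-high), both also sorted for the congenic marker Thy1.1, OT-I cells of such lesions at days 20 to 21, carrying the congenic marker Ly5.1 in its place, and SV40-I cells of such lesions at days 20 to 21, carrying Thy1.1 and sorted without the PD1, LAG3 and CD39 gate (late SV40-I cells). The other two groups, with 2 libraries each, were naive SV40-I cells that had been stimulated through CD3 and CD28, grown in IL-2 and infected with a retrovirus carrying GFP alone or TOX-GFP, then sorted for GFP. Ages and sexes of the mice are not given in the labels. SV40-I and OT-I cells differ in receptor and congenic marker as well as in the antigen they can meet, which cannot be told apart here. Headings in the deposited tables have WT in the marker-high columns and KO in the marker-low ones, whereas the labels give no genotype, so gate and genotype cannot be told apart in that comparison. The source field of the labels names splenocytes for every library, although the titles name liver lesions.

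KLR genes encode type II membrane proteins with a lectin-like outer domain, most of them in a cluster called the NK gene complex, and activated CD8 T cells are known to switch on several of them. Inhibitory members carry an ITIM motif in their tail: KLRG1 binds cadherins, and NKG2A (Klrc1) pairs with CD94 (Klrd1) to bind the MHC molecule Qa-1b. Activating members have no signalling motif of their own and lean on adaptors. NKG2D (Klrk1), a receptor for stress-induced ligands, signals through DAP10 (Hcst), NKG2C (Klrc2) with CD94 through DAP12 (Tyrobp), and NK1.1 (Klrb1c) through the Fc receptor gamma chain (Fcer1g).

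The libraries held 37006508 to 54195918 counted fragments. The labels do not say that libraries of a group came from separate mice, and p-values here reflect only how much those libraries varied. All 8 T cell markers examined were detected in every library. The 13 genes of a macrophage and Kupffer cell list summed to 120 to 301 CPM (counts in each 1000000 of the library total) in naive libraries, 734 to 8949 in marker-low, 4143 to 6327 in marker-high, 338 to 706 in OT-I and 64.2 to 1137 in late SV40-I libraries, and to 3.90 to 7.54 in cultured libraries. An 8-gene NK cell list, every gene of which also stands in one of the receptor and signalling lists used below, summed to 1.30 to 2.45 CPM in naive, 28.5 to 46.7 in marker-low, 41.1 to 46.8 in marker-high, 6.43 to 11.6 in OT-I, 28.8 to 102 in late SV40-I and 0.271 to 1.70 in cultured libraries. The 8 T cell markers summed to 20374 to 25196 CPM in naive, 9248 to 16626 in marker-low and 13289 to 13887 in marker-high libraries. Sums were 13414 to 14717 CPM in OT-I, 22606 to 25470 in late SV40-I and 5181 to 7285 in cultured libraries. Marker-low library 2 had the 9248 CPM, the highest macrophage sum and 3963 CPM over a 10-gene neutrophil list, the highest of any library.

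The 7 receptor genes lie on chromosome 6 of GRCm38. Klrg1 stands apart at chr6:122270596-122282882 on the minus strand, and Klrb1c lies at chr6:128778485-128789215, also on the minus strand. The other 5 receptor genes sit between bases 129577905 and 129678973: Klre1 and Klrd1 on the plus strand, and Klrk1, Klrc2 and Klrc1 on the minus strand. Fcer1g lies at chr1:171229572-171234365 on the minus strand. Tyrobp (chr7:30413760-30417585, plus strand) and Hcst (chr7:30417712-30419854, minus strand) are neighbours that face each other with 126 bases between them, and counting did not use the strand.

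Promoter windows are shown for 4 members whose RNA levels set up the contrasts below: Klrc1 and Klrk1, the pair most alike across libraries, and the adaptors Fcer1g and Hcst, which were not alike. RefSeq promoter entries on GRCm38.p6 matched 7 of the 10 members (no entry for Klrg1, Klrd1 and Tyrobp). The windows end at the last base before the annotated gene and read 5′ to 3′ on the gene's strand, the minus strand in each case. They cover chr6:129678974-129679223 for Klrc1, chr6:129623865-129624114 for Klrk1, chr1:171234366-171234599 for Fcer1g and chr7:30419855-30420104 for Hcst. Capitals mark matches to a RUNX core motif on either strand.
Klrc1: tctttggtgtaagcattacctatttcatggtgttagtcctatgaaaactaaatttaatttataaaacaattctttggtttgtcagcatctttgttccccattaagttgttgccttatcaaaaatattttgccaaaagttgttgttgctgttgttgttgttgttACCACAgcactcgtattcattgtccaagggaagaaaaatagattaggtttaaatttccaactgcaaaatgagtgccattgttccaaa
Klrk1: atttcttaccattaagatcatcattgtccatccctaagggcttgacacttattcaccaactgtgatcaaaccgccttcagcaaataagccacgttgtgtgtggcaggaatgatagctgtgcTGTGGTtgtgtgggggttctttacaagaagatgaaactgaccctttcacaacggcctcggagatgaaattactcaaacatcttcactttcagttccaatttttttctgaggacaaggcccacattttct
Fcer1g: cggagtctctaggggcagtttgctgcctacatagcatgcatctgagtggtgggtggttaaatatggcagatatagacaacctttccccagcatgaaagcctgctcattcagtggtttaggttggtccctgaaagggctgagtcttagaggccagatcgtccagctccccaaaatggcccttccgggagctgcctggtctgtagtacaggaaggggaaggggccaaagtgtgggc
Hcst: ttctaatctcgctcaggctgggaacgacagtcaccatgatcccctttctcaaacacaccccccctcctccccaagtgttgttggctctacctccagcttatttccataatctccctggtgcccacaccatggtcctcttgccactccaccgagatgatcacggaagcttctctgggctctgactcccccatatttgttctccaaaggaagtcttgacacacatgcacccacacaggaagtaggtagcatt
The motif searched was TGTGGT on both strands. Klrc1 held 1 match as the reverse complement, printed ACCACA, starting 87 bases before the end of its window. Klrk1 held 1 match in the printed direction, starting 129 bases before the end. Among 32851 promoter windows of 250 bases in the same table, 14% held this motif. A T-box site (AGGTGTGA, 1.12% of windows), an AP-1 site (TGACTCA, 4.46%) and an NR4A site (AAAGGTCA, 1.34%) had no match in these 4 windows or in that of Klrc2. The Fcer1g window is 234 bases and that of Klrc2 157 bases, shorter than the windows behind these shares. RefSeq starts of Klrb1c and Klre1 lie inside the annotated genes and were not searched.

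Naive cells held little RNA of most receptors but much of Klrd1 and Hcst, and lesion cells of every group held more of most receptors. A gene was called changed at an adjusted p under 0.05 in edgeR's quasi-likelihood test with Benjamini-Hochberg adjustment over all genes. Late SV40-I cells had 9 of the 10 members higher than naive cells, where 11.1% of all genes tested were higher, 6.86% lower and 18% either. OT-I cells had 6 of 10 higher (5.06% of all genes) and none lower (2.29%, or 7.35% either way). Marker-high cells had 8 of 10 higher (14.3% of all genes) and 1, Hcst, lower (9.1% of all genes, or 23.4% either way). Marker-low cells had 8 of 10 higher (10.6% of all genes) and none lower (6.21%, or 16.8% either way). The median log2 fold change of the members against naive cells was 5.82 in late SV40-I, 6.77 in OT-I, 5.97 in marker-high cells and 5.23 in marker-low ones, against 0.05, 0.04, 0.06 and 0.09 over all genes. These 4 comparisons share the naive libraries and are not independent of each other. In bulk libraries, fewer cells with a transcript and less of it per cell cannot be told apart.

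**Figure D1:**
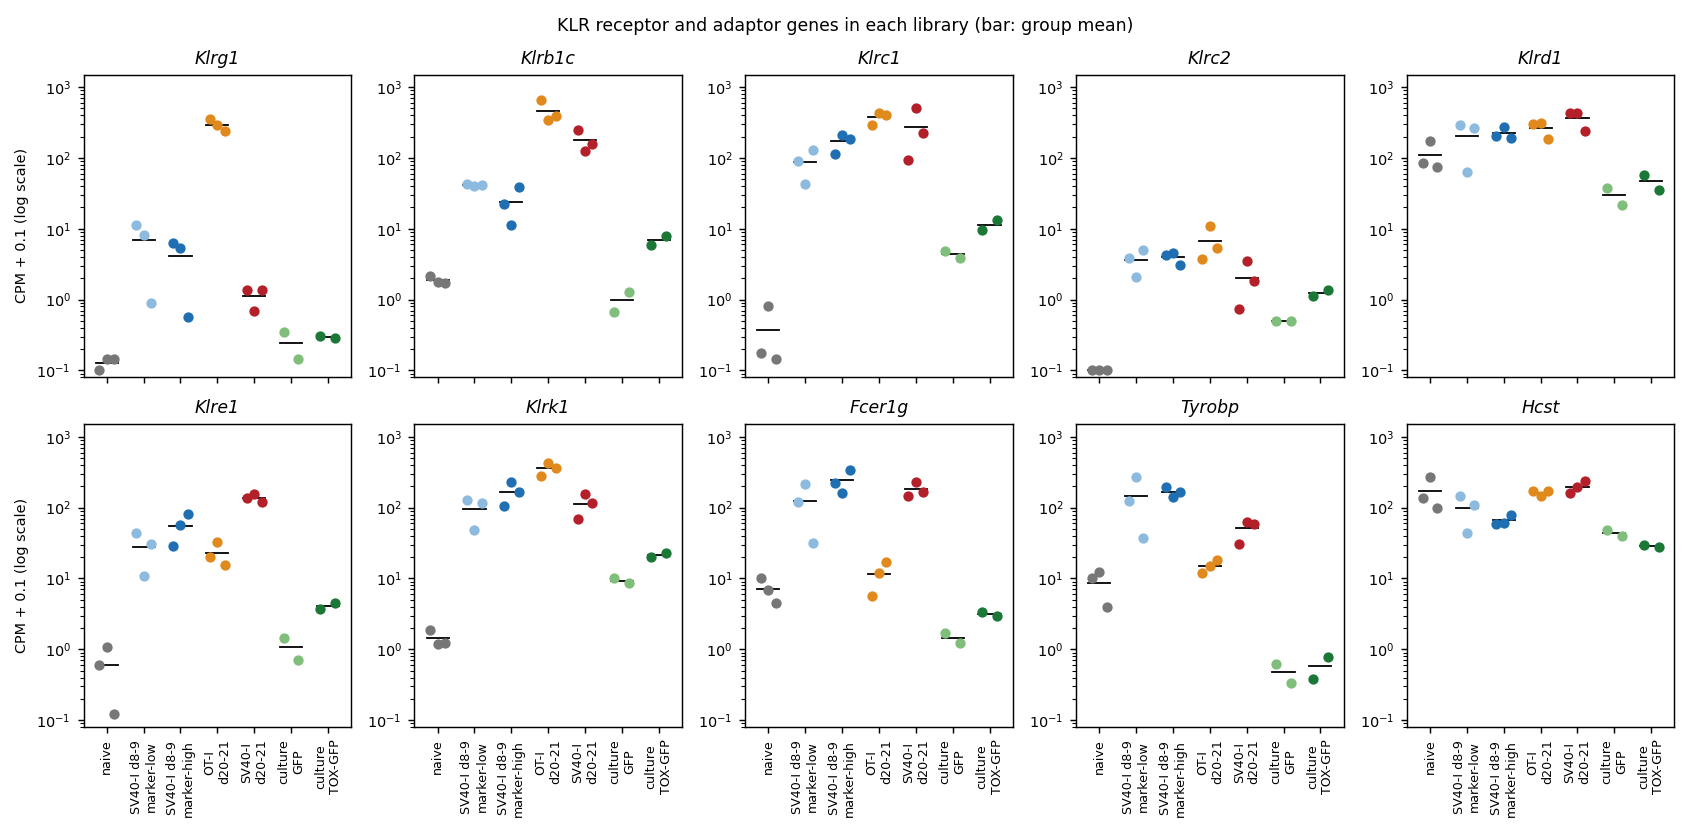
Level of each member gene in each of the 19 libraries, as CPM plus 0.1 on a log axis, with 1 point per library and a bar at the group mean. Klrg1 stands at 239.8 to 351 CPM in OT-I libraries and at 11.3 CPM or less in all others, whereas Fcer1g is low in OT-I libraries (5.52 to 16.8 CPM) and at 31.3 CPM or more in the other lesion libraries.

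Klrg1, an inhibitory receptor known as a mark of terminal effector cells, was abundant in OT-I cells alone. The OT-I libraries held 351, 287 and 239.8 CPM. Marker-low libraries held 11.3, 8.07 and 0.787 CPM, and marker-high libraries 6.18, 5.30 and 0.464 CPM. In each of these 2 groups, library 3 stood far below libraries 1 and 2. The NK receptor gene Ncr1 had the same order, with 22.9, 16.7 and 2.98 CPM in marker-low and 22.2, 14.1 and 2.96 CPM in marker-high libraries. Klra3 and Klra7, of the same NK list, were instead highest in library 3 of both groups. What part NK cells had in the early Klrg1 values was not tested.

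Late SV40-I libraries held 1.25, 0.590 and 1.26 CPM of Klrg1, and naive libraries 0, 0.0438 and 0.0437 CPM, 4 counts in all. Cultured libraries held 0.248 and 0.0436 CPM with GFP and 0.209 and 0.184 CPM with TOX-GFP. In the order of group means the OT-I group was followed by marker-low, marker-high, late SV40-I, TOX-GFP, GFP and naive cells. The OT-I range overlapped no other group, late SV40-I libraries lay above every TOX-GFP library, and each further pair of neighbours overlapped.

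Klrc1 encodes NKG2A, the inhibitory partner of CD94. Its naive libraries held 0.0775, 0.701 and 0.0437 CPM. Marker-low libraries held 91.5, 42.7 and 127 CPM, marker-high libraries 115, 208 and 187 CPM, OT-I libraries 287, 434 and 397 CPM and late SV40-I libraries 92.5, 507 and 225 CPM. The late SV40-I group held both the highest library of all and one below most other lesion libraries, so neighbouring lesion groups overlapped throughout. GFP libraries held 4.80 and 3.79 CPM and TOX-GFP libraries 9.46 and 13.2 CPM. Cultured cells lay between naive and lesion cells with no overlap on either side.

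Klrd1 encodes CD94, the shared partner chain of the NKG2 receptors, and was the receptor gene with the most RNA in naive cells, at 85.7, 170.3 and 73.4 CPM. Marker-low libraries held 286, 63.0 and 267 CPM, marker-high libraries 200, 274 and 188 CPM, OT-I libraries 298, 311 and 185 CPM and late SV40-I libraries 427, 436 and 242 CPM. Neighbours in this order overlapped from late SV40-I down to naive cells. Cultured libraries held less than any naive library, with 37.8 and 21.7 CPM for GFP and 57.9 and 34.9 CPM for TOX-GFP.

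Klre1 encodes a receptor chain that pairs with KLRI1 or KLRI2 and takes its inhibitory or activating sign from that partner. Late SV40-I cells held the most, at 137, 158 and 118 CPM, above every other library. Marker-high libraries held 28.8, 57.6 and 80.3 CPM, marker-low libraries 43.2, 10.6 and 30.2 CPM and OT-I libraries 20.2, 32.3 and 15.2 CPM. These 3 groups overlapped as neighbours. Naive libraries held 0.504, 0.964 and 0.0218 CPM, GFP libraries 1.33 and 0.610 CPM and TOX-GFP libraries 3.55 and 4.39 CPM. The partner gene Klri2 reached 2.35 to 7.45 CPM in late SV40-I libraries and at most 1.93 CPM in any other library. Over the 15 libraries from mice, Pearson's r of Klre1 with the NK list was 0.89 on log2(CPM + 1). What part NK cells had in the Klre1 values was not tested.

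Klrk1 encodes NKG2D. OT-I cells held the most, at 284, 432 and 363 CPM, above all other libraries. Marker-high libraries held 104, 231 and 168 CPM, late SV40-I libraries 70.0, 155 and 117 CPM and marker-low libraries 126, 47.8 and 116 CPM. These 3 groups overlapped. Naive libraries held 1.80, 1.07 and 1.11 CPM, GFP libraries 9.99 and 8.46 CPM and TOX-GFP libraries 19.8 and 22.5 CPM, with no overlap among the 3 groups.

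Klrb1c encodes NK1.1, the antigen by which NK cells are stained in C57BL/6 mice. Its 7 groups fell into an order without any overlap between neighbours. OT-I libraries held 645, 337 and 394 CPM, late SV40-I libraries 249.99, 127 and 155 CPM, marker-low libraries 43.2, 39.4 and 41.2 CPM and marker-high libraries 21.9, 11.003 and 38.3 CPM. TOX-GFP libraries followed with 5.81 and 7.87 CPM, naive libraries with 2.03, 1.64 and 1.64 CPM, and GFP libraries with 0.564 and 1.20 CPM. The gap between marker-low and marker-high cells was small, since the lowest marker-low and the highest marker-high library were nearly equal. Klrb1c shares 413 exon bases with an overlapping gene on the same strand, RP24-127M20.8, which had at most 0.0453 CPM in any library, and 17% of its 50-base words also occur in another gene, mostly Gm44511.

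Klrc2, the activating NKG2C, stayed low everywhere. No naive library held a count, which allows up to 0.0581 to 0.0657 CPM at their depths (3 counts, counting error only). Marker-low libraries held 3.70, 1.95 and 4.97 CPM, marker-high libraries 4.18, 4.43 and 2.94 CPM, OT-I libraries 3.60, 10.9 and 5.32 CPM and late SV40-I libraries 0.636, 3.41 and 1.73 CPM. Lesion groups overlapped as neighbours. GFP libraries held 0.406 and 0.392 CPM and TOX-GFP libraries 1.01 and 1.25 CPM. Against the floor of 3 counts over the naive group, Klrc2 was at least 302-fold higher in OT-I, 184-fold in marker-high, 169-fold in marker-low, 97.3-fold in late SV40-I and 19.03-fold in GFP cells. Of the 50-base words in Klrc1 transcripts of GENCODE M21, 38.6% also occur in another gene, mostly Klrc2, and 16.3% of those in Klrc2 do, so reads of 50 bases could be exchanged between this pair or lost from it.

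Hcst encodes DAP10, which carries NKG2D signals to phosphoinositide 3-kinase. It was as abundant in naive cells (135, 274 and 99.3 CPM) as in late SV40-I cells (160.1, 194 and 236 CPM) or OT-I cells (169, 145 and 171 CPM), with overlapping ranges. Marker-low libraries held 146, 43.6 and 109 CPM and marker-high libraries 58.2, 61.5 and 78.4 CPM, all 3 of the latter below every naive library. GFP libraries held 47.8 and 39.2 CPM and TOX-GFP libraries 29.6 and 27.3 CPM, the lowest of all. The order of groups was thus unlike that of Klrk1, which was lowest in naive cells.

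Fcer1g encodes an adaptor with an ITAM motif, shared with Fc receptors of myeloid cells and mast cells. Late SV40-I libraries held 147, 227 and 169 CPM, and OT-I libraries of the same days 5.52, 11.8 and 16.8 CPM. Marker-high libraries held 224, 161 and 341 CPM and marker-low libraries 119, 217 and 31.3 CPM, with overlap between these groups and late SV40-I cells. Naive libraries held 10.0, 6.70 and 4.34 CPM and overlapped OT-I libraries. GFP libraries held 1.62 and 1.11 CPM and TOX-GFP libraries 3.29 and 2.84 CPM.

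Tyrobp encodes DAP12, the ITAM adaptor of NKG2C and of many myeloid receptors. Marker-high libraries held 193, 143 and 167 CPM and marker-low libraries 125, 273 and 37.7 CPM. Late SV40-I libraries held 30.5, 62.9 and 59.0 CPM, below every marker-high library and above every OT-I library (11.7, 14.9 and 18.1 CPM). Naive libraries held 9.98, 12.2 and 3.80 CPM and overlapped OT-I libraries. Cultured cells held almost none, with 0.519 and 0.240 CPM for GFP and 0.285 and 0.675 CPM for TOX-GFP.

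Macrophages express Fcer1g and Tyrobp strongly, and the levels of both genes moved with the macrophage list, but not with it alone. Over the 15 libraries from mice, Pearson's r on log2(CPM + 1) with the macrophage list was 0.69 for Fcer1g and 0.88 for Tyrobp. With the NK list it was 0.91 and 0.84, and with a dendritic cell list 0.75 and 0.65. The marker-low library with the most macrophage RNA (8949 CPM) had the most Tyrobp of any library (273 CPM), and the marker-low library with the least (734 CPM) had the least of that group for both adaptors. In late SV40-I library 1 the macrophage list summed to 64.2 CPM, less than in any naive library, with Csf1r at 9.65 CPM and Lyz2 at 19.4 CPM, while it held 147 CPM of Fcer1g and 30.5 CPM of Tyrobp against at most 10.0 and 12.2 CPM in naive libraries. Other lists were raised in this library: the 8 NK genes summed to 28.8 CPM against at most 2.45 in naive libraries, with 4 of the 8 detected, and the 6 genes of a dendritic cell list summed to 36.2 CPM against at most 9.57, with 2 of the 6 detected. Of the NK genes, Klra3 was at 13.7 and Klra7 at 8.07 CPM, while Ncr1, which encodes the NK receptor NKp46, and Klra4, Klra8 and Klrb1f were at 0. Ncr1 was at 2.96 to 22.9 CPM in the early lesion libraries and at most 2.22 CPM in OT-I and late SV40-I libraries. With the macrophage sum added to the fit as a covariate, an alternative chosen after seeing the data, the difference of marker-high from naive cells was 3.40 log2 units for Fcer1g and 2.21 for Tyrobp (adjusted p = 0.0221 and 0.0645, edgeR), where the fit without it gave 5.13 and 4.30. What part macrophages, NK cells, dendritic cells or other cells had in the early and late lesion values was not tested.

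**Figure D2:**
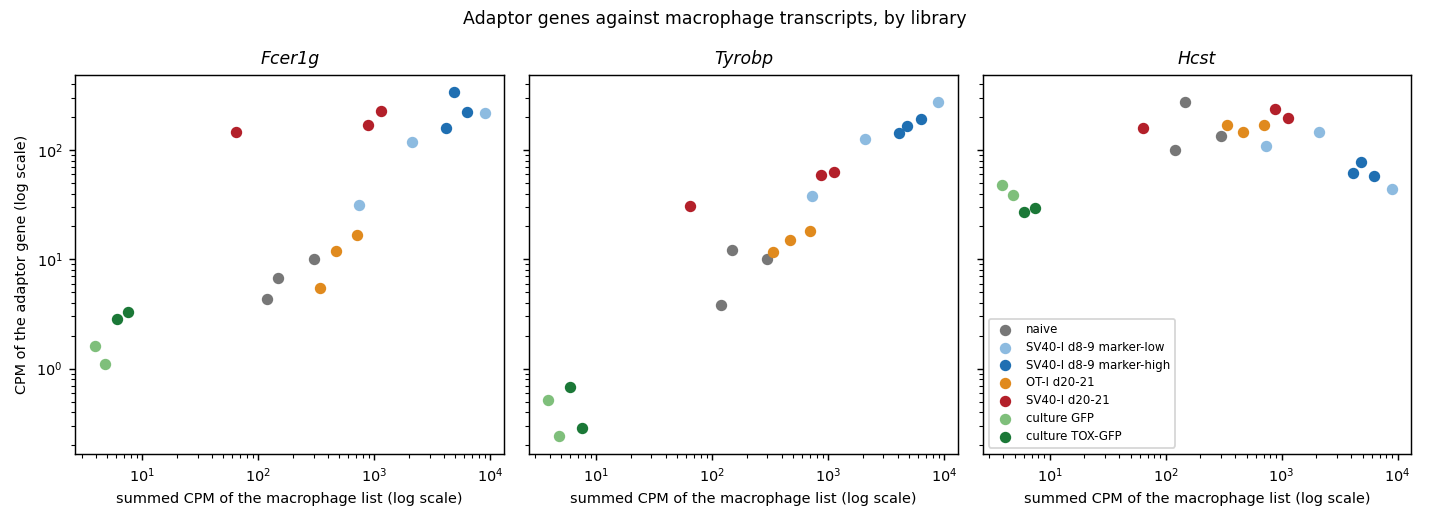
CPM of the 3 adaptor genes against the summed CPM of the macrophage list, both on log axes, with 1 point per library coloured by group. Tyrobp climbs with the macrophage sum across lesion libraries, whereas late SV40-I library 1 (64.2 CPM on the horizontal axis) has as much Fcer1g as libraries with far higher sums, and Hcst shows no such climb.

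The comparison of late SV40-I with OT-I cells sets SV40-I and OT-I receptors side by side in lesions of the same days. Of 10 members, 2 were higher and 2 lower, where 4.91% of all genes were higher, 4.11% lower and 9.02% either. Klre1 was 2.68 ± 0.74 log2 units higher (standard error, here and below; adjusted p = 0.0382, edgeR) and Fcer1g 4.06 ± 0.65 higher (adjusted p = 0.00164), whereas Klrg1 fell by 8.08 ± 1.14 (adjusted p = 0.00071) and Klrk1 fell by 1.59 ± 0.40 (adjusted p = 0.0252). Ranges also stood apart for Klrb1c (-1.32 ± 0.41, adjusted p = 0.0649), Klrc2 (-1.70 ± 0.65, adjusted p = 0.144) and Tyrobp (1.83 ± 0.59, adjusted p = 0.075), which edgeR did not call. DESeq2 called Klrb1c (adjusted p = 0.0209) and Tyrobp (0.0129) as well, and so did edgeR with the macrophage covariate (0.0493 and 0.0122). The shares of all genes called in those fits are not given here, and the shares above are those of the main fit. Klrc1, Klrd1 and Hcst differed by -0.39, 0.54 and 0.34 log2 units, with overlapping ranges, and were not called. The call of Klre1 was lost when any 1 of the 6 libraries was left out (adjusted p from 0.0710 to 0.143), and that of Klrk1 when OT-I library 2 or 3 or late SV40-I library 1 or 3 was (0.0687 to 0.102), with their directions kept. With the 3 most hepatocyte-rich libraries left out, an alternative chosen after seeing the data that leaves 1 OT-I and 2 late SV40-I libraries and takes the spread of the lone library from the other groups, Klrg1 was the only member called. Folds were then 4.81 for Fcer1g, 2.64 for Klre1 and -1.63 for Klrk1, and over all 18872 genes tested 83 were called higher and 144 lower.

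Marker-high against marker-low cells asks how members differ with the PD1, LAG3 and CD39 gate at days 8 to 9. No member was called in edgeR, none had an unadjusted p under 0.05 and none was called in DESeq2, where edgeR called 0.475% of all genes higher, 0.719% lower and 1.19% either. Marker-low library 2, with the lowest T cell sum of its group, held that group's least Klrc1, Klrd1, Klre1, Klrk1 and Hcst and its most Fcer1g and Tyrobp. Without this library 0 members were called as well. Values for 7 of 10 members were higher in marker-high cells, among them Fcer1g (0.95 ± 0.58), Klre1 (0.94 ± 0.70), Klrc1 (0.94 ± 0.68) and Klrk1 (0.76 ± 0.39), and the lowest adjusted p was 0.477, for Klrb1c (-0.83 ± 0.41). Klrg1 differed by -0.82 ± 0.85 log2 units. The SV40-I against OT-I effect of Klrg1 differed from this effect by -7.27 ± 1.32 (adjusted p = 0.0192, edgeR), the only member for which the difference of the 2 effects was called, where 0.628% of all genes were called higher, 0.402% lower and 1.03% either. DESeq2 also called Klrk1 (-2.33) and Fcer1g (3.14) in that test. The edgeR call of Klrg1 was lost without any 1 late SV40-I library or without marker-high library 2 (adjusted p from 0.0513 to 0.0573).

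Cells with TOX-GFP against cells with GFP alone compares members with and without forced TOX expression in culture. Tox itself was at 118 to 156 CPM with TOX-GFP and at 13.8 to 21.4 CPM with GFP, and reads of a vector's coding sequence would count as Tox. Of 9 members tested (Klrg1 was too low), none was called in edgeR and 7 had an unadjusted p under 0.05, where no gene of 14614 was called (0%). Klrb1c was 2.95 ± 0.45 log2 units higher, Klre1 2.03 ± 0.47, Klrc2 1.49 ± 0.50, Klrc1 1.39 ± 0.28, Klrk1 1.19 ± 0.20 and Fcer1g 1.16 ± 0.37, with adjusted p-values from 0.207 to 0.316. Both TOX-GFP libraries lay above both GFP libraries for each of these 6 genes, which with 2 libraries a group can readily arise without an effect. The shares of all genes with ranges apart or with an unadjusted p under 0.05 are not given here. Klrd1 (0.64 ± 0.35) and Tyrobp (0.33 ± 0.77) overlapped, and Hcst (-0.61 ± 0.17) was lower in both TOX-GFP libraries. The median over the 9 members was 1.19 log2 units, against 0.01 over all genes. DESeq2 called 5 members, of which Klrb1c, Klre1, Klrk1 and Klrc1 were higher and Hcst lower (adjusted p from 7.86e-07 to 0.0427), where it called 418 genes higher and 142 lower. With 2 libraries a group, edgeR called 3 members when either GFP library was left out, the lone GFP library being assumed to vary like the other group, and 0 when either TOX-GFP library was. Over all genes, 177 were then higher and 40 lower without GFP library 1, and 1021 higher and 379 lower without GFP library 2. The effect of TOX-GFP differed from that of the marker gate for no member in edgeR (Klrb1c, 3.82 ± 0.69, adjusted p = 0.114, the only unadjusted p under 0.05), where 0.0215% of genes were called higher, 0.00537% lower and 0.0269% either, and DESeq2 called Klrb1c in that test.

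**Figure D3:**
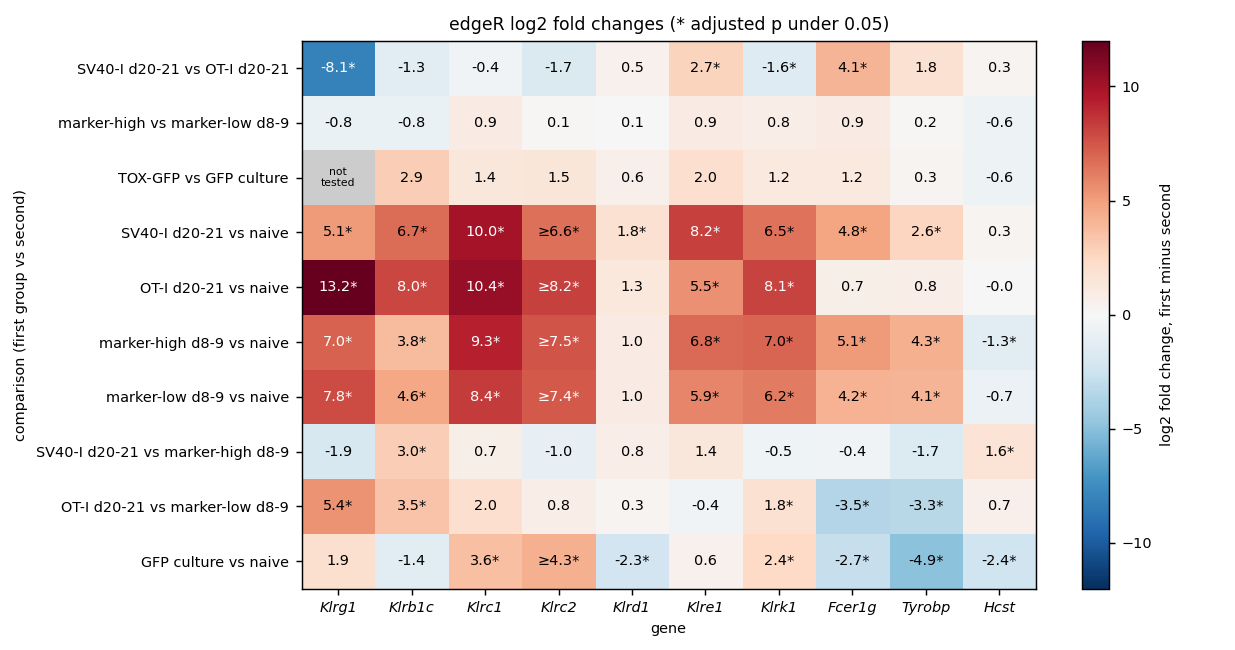
edgeR log2 fold change of each member (columns) in each comparison (rows), first group minus second; an asterisk marks an adjusted p under 0.05 and a sign of at least marks lower bounds where naive cells had no count. No asterisk stands in the rows for the marker gate and for TOX-GFP against GFP, while the rows against naive cells are called for most receptors.

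Late SV40-I cells against marker-high cells compares the 2 lesion times, but late cells were not gated on PD1, LAG3 and CD39, so time and gate cannot be told apart. Klrb1c was 2.96 ± 0.43 log2 units higher at the later time (adjusted p = 0.00202, edgeR) and Hcst 1.62 ± 0.43 higher (adjusted p = 0.0461), 2 of 10 members, where 1.76% of all genes were higher, 3.57% lower and 5.33% either. Tyrobp was -1.68 ± 0.58 (adjusted p = 0.117) with ranges apart, and Klre1 1.35 ± 0.70 (adjusted p = 0.279), also with ranges apart. Klrg1, Klrc1, Klrc2, Klrd1, Klrk1 and Fcer1g overlapped between the times. The macrophage sum was higher in all 3 marker-high libraries than in any late library, so covariate and group cannot be told apart. With this sum as a covariate neither Klrb1c (2.39, adjusted p = 0.0681, edgeR) nor Hcst (1.38, 0.28) was called. Over all genes 42 were then called higher and 116 lower, down from 289 and 585. What part macrophages had in these differences was not tested. The call of Hcst was also lost in every fit that left out 1 of the 6 libraries except that without marker-high library 3 (0.0705 to 0.181).

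OT-I cells of days 20 to 21 against marker-low cells of days 8 to 9 compares groups that differ in receptor, time, congenic marker and gate, and perhaps genotype, which cannot be told apart. Higher in OT-I cells were Klrg1 (5.38 ± 1.00, adjusted p = 0.00763, edgeR), Klrb1c (3.45 ± 0.44, adjusted p = 0.000857) and Klrk1 (1.84 ± 0.40, adjusted p = 0.0185). Fcer1g fell by 3.49 ± 0.63 (adjusted p = 0.00692) and Tyrobp fell by 3.33 ± 0.62 (adjusted p = 0.00779). These are 5 of 10 members, where 3.38% of all genes were higher, 4.26% lower and 7.64% either. Klrc1 (2.05 ± 0.70, adjusted p = 0.0881) had ranges apart and was not called by edgeR, but was by DESeq2 (adjusted p = 0.0226) and by edgeR on these 2 groups alone (0.0292). Macrophage sums were lower in OT-I libraries (338 to 706 CPM) than in marker-low ones (734 to 8949 CPM) without overlap. Covariate and group therefore cannot be told apart. With this sum as a covariate both adaptors were still called (adjusted p = 0.0298 and 0.035, edgeR). Over all alternatives folds ranged from -4.38 to -2.44 for Fcer1g and from -3.79 to -2.03 for Tyrobp. What part macrophages had in these differences was not tested. The call of Klrk1 was lost without OT-I library 2 or 3 (0.0541 and 0.0547), and leaving out those 3 hepatocyte-rich libraries, Klrb1c was the only member called, with folds of 5.78 for Klrg1, 1.64 for Klrk1, -4.38 for Fcer1g and -3.54 for Tyrobp, where 24 genes were called higher and 41 lower.

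Against naive cells, receptors rose by the largest steps. Klrc1 was 10.41 ± 1.03 log2 units higher in OT-I, 10.02 ± 1.02 in late SV40-I, 9.30 ± 1.00 in marker-high cells and 8.36 ± 0.96 in marker-low ones. Of its 38 naive counts, 32 came from naive library 2, without which these folds were 12.52, 12.13, 11.40 and 10.47. Klrk1 was 8.08 ± 0.54, 6.49 ± 0.50, 6.9998 ± 0.51 and 6.24 ± 0.50 higher in the same order, and Klrb1c 8.05 ± 0.55, 6.73 ± 0.52, 3.77 ± 0.46 and 4.60 ± 0.47. Klre1 was 5.49 ± 0.86, 8.17 ± 0.96, 6.82 ± 0.91 and 5.87 ± 0.87 higher. All these folds were called (highest adjusted p = 0.00139, edgeR). Klrg1 was 13.23 ± 1.49 higher in OT-I, 5.14 ± 1.35 in late SV40-I, 7.03 ± 1.33 in marker-high cells and 7.85 ± 1.34 in marker-low ones (highest adjusted p = 0.0164), a fold that rests on 4 naive counts and whose late SV40-I call was lost without any 1 naive library (adjusted p from 0.0527 to 0.0654). Klrd1 rose in late SV40-I cells by 1.82 ± 0.50 (adjusted p = 0.0234), a call lost without naive library 1 or 3 or late library 1 or 2, and its 0.96 to 1.28 log2 units in the other lesion groups were not called.

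The adaptors split against naive cells. Fcer1g was 4.76 ± 0.67 log2 units higher in late SV40-I, 5.13 ± 0.68 in marker-high cells and 4.19 ± 0.65 in marker-low ones, and Tyrobp 2.62 ± 0.60, 4.30 ± 0.65 and 4.12 ± 0.64 (highest adjusted p = 0.00918, edgeR). In OT-I cells neither was called, at 0.70 ± 0.58 for Fcer1g and 0.79 ± 0.57 for Tyrobp. Hcst fell by 1.34 ± 0.43 in marker-high cells (adjusted p = 0.0385), a call lost without any 1 marker-high library or naive library 1 or 2 (adjusted p from 0.0529 to 0.188) and with the macrophage covariate (-0.98, 0.495). The 8 T cell markers summed to 20374 to 25196 CPM in naive and 13289 to 13887 CPM in marker-high libraries, and their part in the Hcst value was not tested. Hcst was not called in marker-low (-0.70 ± 0.42), OT-I (-0.05 ± 0.42) or late SV40-I cells (0.29 ± 0.42).

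Cultured GFP cells against naive cells had 3 members higher and 4 lower, where 17.6% of all genes were higher, 15% lower and 32.6% either. Klrc1 (3.58 ± 0.82, adjusted p = 0.00335, edgeR), Klrk1 (2.41 ± 0.43, adjusted p = 0.000481) and Klrc2 were higher. Klrd1 (-2.28 ± 0.59), Fcer1g (-2.74 ± 0.69), Tyrobp (-4.90 ± 0.83) and Hcst (-2.36 ± 0.49) were lower (highest adjusted p = 0.00751). Macrophage sums were 3.90 to 4.80 CPM in GFP libraries and 120 to 301 CPM in naive ones, so covariate and group cannot be told apart. With this sum as a covariate Fcer1g (-0.84, adjusted p = 0.545, edgeR) and Klrc1 (4.00, 0.0738) were no longer called. The other 5 members called, Tyrobp and Hcst among them, kept their calls. What part macrophages had in these differences was not tested. The calls of Klrd1 and Fcer1g were lost without GFP library 2 (adjusted p = 0.11 and 0.0869).

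Ratios of TPM (counts per gene length, scaled to a common library total) set partner genes side by side within a library. The lengths cover all annotated exons: 5812 bases for Klrc2 and 7183 for Klrk1, against 1984 for Klrc1, 1281 for Klrd1 and 722 for Hcst. Ratios and ranks by TPM depend on these lengths, which may not be those of the transcripts present. By mean CPM, Klrc1 (372) exceeded Klrd1 (265) in OT-I cells. Klrd1 exceeded Klrc1 at least 376-fold in naive libraries, and by a median of 3.26-fold in marker-low, 2.04-fold in marker-high, 1.11-fold in OT-I and 1.66-fold in late SV40-I libraries. The ratio was above 1 in every library but 1 OT-I library (0.722), but reads of Klrc1 lost to sequence shared with Klrc2 would raise it, and the order of the pair in OT-I cells is uncertain. Klrc1 exceeded Klrc2 64.3 to 74.9-fold in marker-low, 80.3 to 187-fold in marker-high, 117 to 233-fold in OT-I and 381 to 435-fold in late SV40-I libraries. Late SV40-I libraries were above all others with Klrc2 counts on this ratio, and cultured libraries were below the lesion libraries at 27.5 to 34.7-fold.

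Fcer1g over Tyrobp was 2.18 to 3.67 in late SV40-I libraries and 0.359 to 0.707 in OT-I libraries. It was 0.420 to 0.873 in naive, 0.605 to 0.728 in marker-low and 0.854 to 1.56 in marker-high libraries, so late SV40-I cells were apart from each other group sorted from mice. Both adaptors are near 0 in cultured cells, where the ratio was 2.39 to 8.80. Hcst over Klrk1 was 745 or more in naive libraries, 9.07 to 11.5 in marker-low, 2.65 to 5.57 in marker-high and 3.35 to 5.94 in OT-I libraries, and 12.5 to 22.8 in late SV40-I libraries. By mean TPM, Hcst (644 ± 43.0, standard deviation, n = 3), Klrd1 (595 ± 163) and Klrg1 (594 ± 110) led the members in OT-I cells, and Klrd1 (765 ± 238), Hcst (720.1 ± 119) and Fcer1g (546 ± 108) led in late SV40-I cells.

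**Figure D4:**
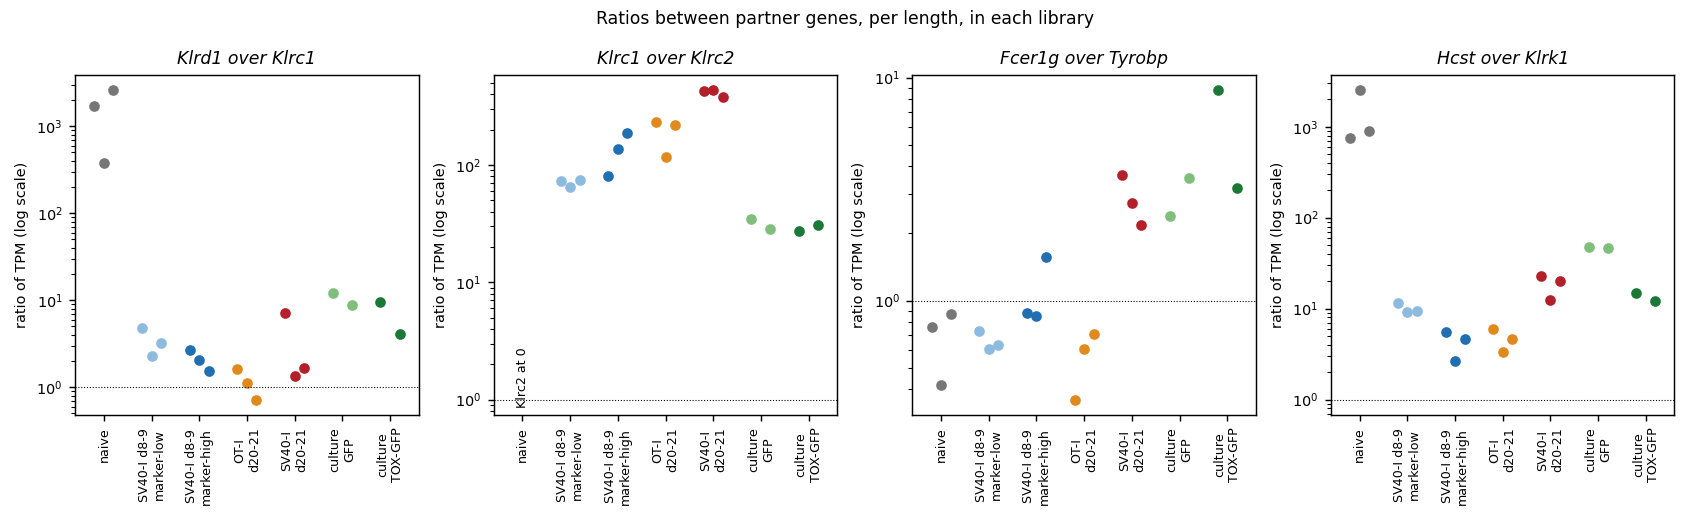
Ratio of TPM between partner genes in each library, on log axes, with a dotted line at a ratio of 1 and 1 point per library. Fcer1g over Tyrobp lies above 1 in the late SV40-I libraries (2.18 to 3.67) and below 1 in the OT-I libraries (0.359 to 0.707).

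Of 24 other listed receptors of the NK gene complex, 19 were tested. In late SV40-I against OT-I cells, 5 were higher and 2 lower (4.91% and 4.11% of all genes), with a median of 0.78 log2 units against -0.04 over all genes. Klra6, a Ly49 receptor gene, had 8.76, 10.4 and 9.21 CPM in late SV40-I libraries, 2.92 to 12.6 CPM in the early lesion libraries and no count in any OT-I or naive library. Klra7, another Ly49 gene, had 8.07, 42.1 and 25.0 CPM in late SV40-I and 0.905, 0 and 0.191 CPM in OT-I libraries (6.07 ± 1.13, adjusted p = 0.00452, edgeR), and Klra3 13.7, 39.8 and 23.6 against 1.79, 1.41 and 1.57 CPM (4.05 ± 0.93, adjusted p = 0.016). Klrb1a and Klra5 were also higher, and Klrb1f and Cd69 were lower. Ly49 genes are near copies of each other, so their reads could be split between them. The marker gate had 1 of the 19 called, Cd69, lower in marker-high cells, and TOX-GFP against GFP had none of 7 tested.

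Of 14 listed genes for ligands of these receptors, 7 were tested in cells sorted from mice, and edgeR called none in late SV40-I against OT-I or marker-high against marker-low cells. H2-T23, which encodes Qa-1b, had 1160 ± 78.6 CPM in late SV40-I and 1049 ± 58.3 CPM in OT-I cells (0.21 ± 0.20 log2 units, adjusted p = 0.619, edgeR). Of 20 signalling genes downstream, 4 were higher and 1 lower in late SV40-I than in OT-I cells (4.91% and 4.11% of all genes). Lat2, an adaptor that resembles LAT, rose by 5.76 ± 0.91 (250.5 against 4.86 CPM, adjusted p = 0.0015), the adaptor gene Sh2d2a rose by 2.82 ± 0.25, the kinase gene Zap70 rose by 1.37 ± 0.18 and the phosphatase gene Ptpn11 rose by 2.30 ± 0.35, while Lat fell by 1.28 ± 0.32 (adjusted p = 0.025). Of 15 tested receptors that use the same adaptors, among them Ncr1 and Fc receptors, none was called in this comparison. Of 21 transcription factors of NK and effector programs, 5 were higher (Tox, Tox2, Ikzf2, Nfil3 and Irf8) and 3 lower (Lef1, Tcf7 and Id2), against the same 4.91% and 4.11%. Nfil3, known for its role in NK cell development, rose by 4.79 ± 0.78 (adjusted p = 0.00192). Tbx21, which encodes T-bet, differed by 0.75 ± 0.59 (adjusted p = 0.518).

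The genes most alike to each member were ranked by Pearson's r of log2(CPM + 1) over the 19 libraries, which fall into 7 groups, among 9580 genes with at least 10 CPM in a group. Klrg1 was most like Rasl11a (r = 0.97), Nccrp1 and S1pr5, each highest in OT-I cells. Klrc1 and Klrk1 were each other's nearest gene (r = 0.98), and the granzyme gene Gzmk came next for Klrc1. Klrb1c was most like the chemokine gene Ccl5 (r = 0.93), Klrd1 like Spin2c (r = 0.93), with Nkg7 among the next, and Klre1 like RP24-95J4.3 (r = 0.97). Fcer1g was most like Napsa (r = 0.98), and Tyrobp like the Fc receptor gene Fcgr3 (r = 0.98), which leads in marker-high cells. Hcst was most like RP23-47P18.9 (r = 0.97). Klrc2 was below 10 CPM in every group mean and was not ranked.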

How the data were processed

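RNA was amplified with SMART-seq V4 and sequenced in pairs of 50-base reads, per the labels' protocols. The deposited values are read counts per gene, made by the authors with featureCounts 1.6.2 in paired mode, by gene name and without strand, on GENCODE M17, per the file headers. STAR, FastQC and DESeq2 are named in the submitters' processing notes, with no version. Groups came from the titles. The members and gene lists were chosen with earlier results of these data known.

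CPM is the count over the library total, and TPM uses the deposited gene lengths. Tests used edgeR 4.0.16 (R 4.3.3): TMM scaling, filterByExpr, robust quasi-likelihood F test and Benjamini-Hochberg adjustment over all genes. One fit held the 15 libraries from mice (16404 genes), another the 4 cultured libraries (14614 genes) and a further fit all 19 (18608 genes, for GFP against naive cells and the difference of TOX effects). Alternatives were other scaling, DESeq2 1.42.0, no or a stricter filter, the 2 groups alone, a replicate block, each library left out and, added after seeing the data, a macrophage covariate and removal of hepatocyte-rich libraries. Within groups, counts of libraries differed by 29.9 to 485 in chi-square per degree of freedom, so none repeated another. A floor of 3 counts is 0.0554 to 0.0811 CPM and covers counting error only. The scripts were tested on simulated data. The named genes are the members, the fixed lists and the 3 genes most alike to each member.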

Additional observations from a re-analysis of the deposited data

Results flagged for a closer look

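For Klrg1 the difference between late SV40-I and OT-I cells was not that between marker-high and marker-low cells. The difference of the 2 effects was -7.27 ± 1.32 log2 units (adjusted p = 0.0192, edgeR with Benjamini-Hochberg adjustment), with all 3 late SV40-I libraries below all 3 OT-I libraries and overlapping values in the early groups. The call was lost without any 1 late SV40-I library or without marker-high library 2 (adjusted p from 0.0513 to 0.0573, edgeR). Without the 3 hepatocyte-rich libraries, which leaves 1 OT-I library, the difference was -7.35. The cause was not tested.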

How the results depend on the processing

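Of 51 called member results, 32 kept their call under every alternative run and none changed direction. Counts of members called in this section stand without the shares of all genes called in the same fits. Where given above, calls over all genes changed between fits as well. The counts therefore cannot be read as particular to the members. DESeq2 called 5 members instead of 0 for TOX-GFP against GFP, 3 instead of 1 for the difference between the SV40-I and marker-gate effects, and 1 instead of 0 for the difference between the TOX-GFP and marker-gate effects. With all 19 libraries in the fit the SV40-I difference gave 2. The replicate block gave 1 instead of 2 for late SV40-I against marker-high cells (Hcst, adjusted p = 0.0708). It ended the calls of Klre1 (2.71, 0.0562) in SV40-I against OT-I and of Hcst (-1.36, 0.0571) in marker-high against naive cells, made Klrb1c called in SV40-I against OT-I (-1.32, 0.0359) and put the uncalled Tyrobp difference of the TOX-GFP effect at -0.0867. Same-numbered libraries did not deviate together in every pair (r of 0.261, 0.126 and -0.085 for late SV40-I and OT-I libraries), so the numbers were not taken as pairs. The macrophage covariate gave 0 instead of 2 for late SV40-I against marker-high cells and 2 instead of 1 for the SV40-I difference. It also ended the calls of Klrg1 against naive cells in marker-high cells (adjusted p = 0.0547) and of Klrc1 in GFP cells (0.0738). Without the hepatocyte-rich libraries, 1 member was called instead of 4 for SV40-I against OT-I, 1 instead of 2 for late against marker-high, 1 instead of 5 for OT-I against marker-low and 0 instead of 1 for the SV40-I difference, and 7 instead of 9 for late SV40-I against naive (Tyrobp 2.43, adjusted p = 0.0511; Klrd1 1.68, 0.0932). These fits have fewer libraries. The cause was not tested.

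Uncalled values changed sign. With the covariate these were Klrc2 for the marker gate (-0.18), Hcst in OT-I against naive (0.0611), Fcer1g (1.05) and Klrd1 (-0.16) in late against marker-high, Klrd1 in OT-I against marker-low (-0.20) and Klre1 in GFP against naive cells (-0.26). Without the hepatocyte-rich libraries they were Fcer1g (-0.26) and Hcst (0.0941) in OT-I against naive and Klrc1 in late against marker-high cells (-0.0005).

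Leaving out 1 library at a time, the members called ranged from 2 to 3 for SV40-I against OT-I, 0 to 3 for TOX-GFP, 7 to 9 for late SV40-I against naive, 1 to 2 for late against marker-high, 4 to 5 for OT-I against marker-low, 0 to 2 for the SV40-I difference, 5 to 7 for GFP against naive and 0 to 1 for the TOX-GFP difference. Uncalled values then ranged across 0: Klrc1 from -1.15 to 0.0178 for SV40-I against OT-I; for the marker gate Klrd1 from -0.36 to 0.43, Klrc2 from -0.20 to 0.38 and Tyrobp from -0.29 to 0.99; Tyrobp from -0.41 to 0.99 for TOX-GFP. Hcst ranged from -0.32 to 0.50 for OT-I against naive, Klrc1 from -0.0048 to 1.13 for late against marker-high, and Klre1 from -0.76 to 0.13 and Klrd1 from -0.0896 to 0.68 for OT-I against marker-low. Klrb1c ranged from -0.85 to 0.0396 in the SV40-I difference and Klre1 from -0.0114 to 1.47 in GFP against naive cells. In the TOX-GFP difference Fcer1g ranged from -0.40 to 0.72, Tyrobp from -0.59 to 0.85 and Hcst from -0.35 to 0.44. Depth limits Klrg1 and Klrc2 in naive cells, with 4 counts and 0 counts over 3 libraries.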
